A study of Mus musculus with 6 samples.

Results

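Mef2c and Mef2d encode MADS-box transcription factors that bind an A/T-rich element in the promoters of muscle genes, and their upstream regions were read here at 33 CpG entries out of 314 tested across 15 target genes. The entries were all CpG cytosines of Mef2c region 1 (6 entries), Mef2d region 1 (17 entries) and Mef2d region 2 (10 entries) that held at least 10 calls in each of 6 samples. Mef2c region 2 was listed with 7 CpG sites and had 0 calls in every sample, so one of the amplified regions of Mef2c could not be measured. The samples were primary embryonic cardiomyocytes from the ventricles of outbred CD-1 mice at embryonic day 13.5, with the tissue of a litter pooled. Both groups were transfected at 12 nM and collected at 72 h after transfection, 3 cultures with a negative control siRNA (AllStars) and 3 with a mixture of 4 siRNAs against DNMT1, and the cells were then enriched on magnetic columns with an antibody to the surface protein VCAM1. The titles of all 3 negative siRNA samples carry a (2) that no DNMT1 siRNA title has. Its meaning is not given, and whatever it marks cannot be told apart from the treatment. Cell identity rests on the labels and that enrichment, since bisulfite data carry no marker expression, and the Dnmt1 transcript was not analysed here. Nothing in the labels says whether the 3 replicates of a group came from separate litters. A p-value that uses the spread between replicates therefore covers these samples only. The logistic regression used for the calls below does not use that spread, and its p-values reflect the number of calls.

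MEF2 factors act together with GATA4 and other cardiac regulators to switch on contractile protein genes, and MEF2C is required for formation of the right ventricle and outflow tract. DNMT1 copies the methylation of CpG dinucleotides onto the new strand after DNA replication, so a dividing cell with less of the enzyme loses methylation at sites that carried it. Bisulfite treatment turns unmethylated cytosine into uracil, which is read as T, and the methylation level of a cytosine is the percent of its calls read as C.

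The 3 measured regions differ in how many CpG sites they hold, which is why a stretch of 300 bases of each is shown. All are on the plus strand of GRCm38.p6, upstream of every annotated transcript of their gene, with no overlap to an exon, intron or UTR of that gene. Overlap with other genes was not checked. Lower case is used throughout and capitals mark the CpG sites.
Mef2c region 1, chr13:83503339-83503638: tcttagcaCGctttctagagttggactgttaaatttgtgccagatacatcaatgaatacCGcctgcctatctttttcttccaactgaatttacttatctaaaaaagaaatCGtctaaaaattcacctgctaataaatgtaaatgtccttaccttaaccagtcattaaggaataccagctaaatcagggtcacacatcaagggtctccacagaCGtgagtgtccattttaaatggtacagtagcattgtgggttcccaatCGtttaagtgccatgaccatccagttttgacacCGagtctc
Mef2d region 2, chr3:88141424-88141723: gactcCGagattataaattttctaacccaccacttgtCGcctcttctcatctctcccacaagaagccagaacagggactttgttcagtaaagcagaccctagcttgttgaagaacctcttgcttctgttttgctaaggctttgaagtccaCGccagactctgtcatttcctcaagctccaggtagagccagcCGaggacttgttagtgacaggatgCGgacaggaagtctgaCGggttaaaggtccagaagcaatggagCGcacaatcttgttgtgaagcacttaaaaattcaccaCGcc
Mef2d region 1, chr3:88141752-88142051: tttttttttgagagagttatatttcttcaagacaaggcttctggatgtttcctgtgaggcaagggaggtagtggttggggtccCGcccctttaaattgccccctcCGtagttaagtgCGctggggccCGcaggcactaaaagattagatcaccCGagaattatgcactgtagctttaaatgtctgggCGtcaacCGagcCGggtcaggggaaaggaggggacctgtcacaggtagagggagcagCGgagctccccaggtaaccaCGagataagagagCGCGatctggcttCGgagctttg
The Mef2c stretch holds 6 CpG sites at 39.3% GC, the Mef2d region 2 stretch 8 at 48.0% GC, and the Mef2d region 1 stretch 13 at 53.0% GC. Of 32851 RefSeq promoters of the same length, 56.4% held at least as many CpG sites as the Mef2c stretch, 48.6% as many as that of Mef2d region 2 and 37.9% as many as that of Mef2d region 1. The stretches were set by hand and were not matched to the RefSeq promoters in distance from the start. That of Mef2d region 1 leaves out the 4 CpG sites it shares with region 2.

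From its first to its last listed cytosine Mef2c region 1 ran from 83503290 to 83503680 on chromosome 13, which is 744 to 354 bp upstream of the transcription start of Mef2c-218, the most upstream of 31 annotated Mef2c transcripts. Counted the same way, Mef2d region 1 ran from 88141668 to 88142079 on chromosome 3 and Mef2d region 2 from 88141382 to 88141792, so that together they covered 990 to 293 bp upstream of the start of Mef2d-201. These Mef2d spans overlapped by 125 bp and shared 4 CpG sites, each measured in both. The 33 entries are therefore 29 distinct CpG sites, 23 of them at Mef2d. Motifs were searched on both strands of the 300-base stretches shown, and the rest of each amplicon was not searched. A MEF2 motif (CTA, any 4 bases, then TAG) was found in none of the 3 stretches, against 3.69% of the RefSeq promoters. The letters GATA occurred at 3, 1 and 0 places in the stretches of Mef2c region 1, Mef2d region 1 and Mef2d region 2 (57.9% of promoters). The E-box CANNTG occurred 2, 0 and 1 times (72.3% of promoters), and CACGTG and TGACGTCA, whose letters include a CpG, in none (7.15% and 1.79%). TGACG, the start of the latter, lay across a CpG at position 282 of Mef2d region 1 and at position 274 of Mef2d region 2 (20.8%), and GGGCGG lay across a CpG at position 177 of Mef2d region 1 (35.7%). These matches are letters in a window and say nothing of whether a factor was bound.

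All 6 CpG sites of Mef2c region 1 were heavily methylated with negative siRNA and lower in every DNMT1 siRNA sample, whereas at Mef2d 4 of 27 entries passed the test. A site was called when logistic regression of its methylated and unmethylated counts gave a Benjamini-Hochberg adjusted p under 0.05 over all 314 sites and the pooled levels differed by more than 5 percentage points. By this rule 10 of the 33 entries were called lower and 0 higher, against 118 of 314 sites (37.6%) called lower in the whole assay. The call needs a level above 5% to fall from, and 12 of the 33 entries had one with negative siRNA. Of those 12, 10 were called, beside 118 of the 167 such sites in all amplicons. At Mef2c all 6 entries had such a level and 6 were called. At Mef2d 6 of the 27 entries had one and 4 were called. Of these 4, position 26 of region 1 was not called in region 2, which covers the same CpG site. In 20 of the 33 entries every DNMT1 siRNA replicate lay below every negative siRNA replicate, against 138 of 314 sites (43.9%), and none lay wholly above. Of these 20, 8 are in Mef2d region 1, where 29 of 70 non-CpG cytosines separated the same way. The shared CpG sites 652 and 641 bp upstream are counted in both Mef2d regions. Without the difference threshold, 32 of the 33 entries had an adjusted p under 0.05 by logistic regression and were lower, and 0 were higher. Over all 314 sites 207 were lower and 24 higher by this rule. At these depths it includes changes of a fraction of a point. The logistic test takes every call as a separate molecule. A quasi-binomial F test, which widens the error to the spread between replicates, called 7 of the 33 entries, against 61 of 314 (19.4%).

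The CpG site at position 268 of Mef2c region 1 (chr13:83503551, 483 bp upstream of the start; positions count from the first base of the amplicon) was at 81.9%, 80.8% and 84.6% with negative siRNA and at 53.3%, 58.9% and 55.6% with DNMT1 siRNA. Its pooled level fell by 26.4 points, the largest drop of the 314 sites. The groups were 21.9 points apart at their nearest samples, and 67.9% of the negative siRNA level was left.
Position 166 (585 bp upstream) was at 78.1%, 77.7% and 79.9% with negative siRNA and at 52.2%, 55.1% and 55.5% with DNMT1 siRNA. It fell by 24.2 points, to 69.0% of its negative siRNA level. These 2 sites lie in the middle of the amplicon and kept the smallest share of their methylation among its 6 sites.

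Toward the gene, position 315 (436 bp upstream) read 79.2%, 80.1% and 79.8% in the negative siRNA samples and 58.8%, 63.1% and 59.6% in the DNMT1 siRNA samples. Its fall of 19.2 points left 75.9%. The negative siRNA replicates of this site were the closest of the amplicon, with an SD of 0.455 points (n = 3). Position 348, the site nearest the gene at 403 bp upstream, read 67.3%, 74.6% and 75.0% against 49.7%, 57.4% and 53.5%. It had the widest replicate spread of the 6 sites, 72.3% ± 4.36 against 53.5% ± 3.82 (SD, n = 3), and the fewest calls, 602 to 1025 a sample, and it fell by 19.1 points. In both groups replicate 1 was its lowest sample.

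At the end far from the gene, position 115 (636 bp upstream) was the most methylated of all Mef2 sites, at 91.5%, 90.7% and 93.6% with negative siRNA. It was at 71.6%, 75.5% and 76.6% with DNMT1 siRNA, a pooled fall of 17.2 points. Position 64 (687 bp upstream) was at 85.7%, 87.8% and 88.1% against 71.1%, 73.0% and 70.2%, a fall of 15.9 points. Both kept over 80% of their level, 81.1% and 81.9%, the largest shares of the amplicon. None of the 6 sites overlapped between groups, and their adjusted p by logistic regression was at most 3.67e-41. With the replicate spread included, adjusted p ranged from 0.00586 to 0.0283 by the quasi-binomial F test and from 0.0034 to 0.0159 by limma.

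**Figure D1:**
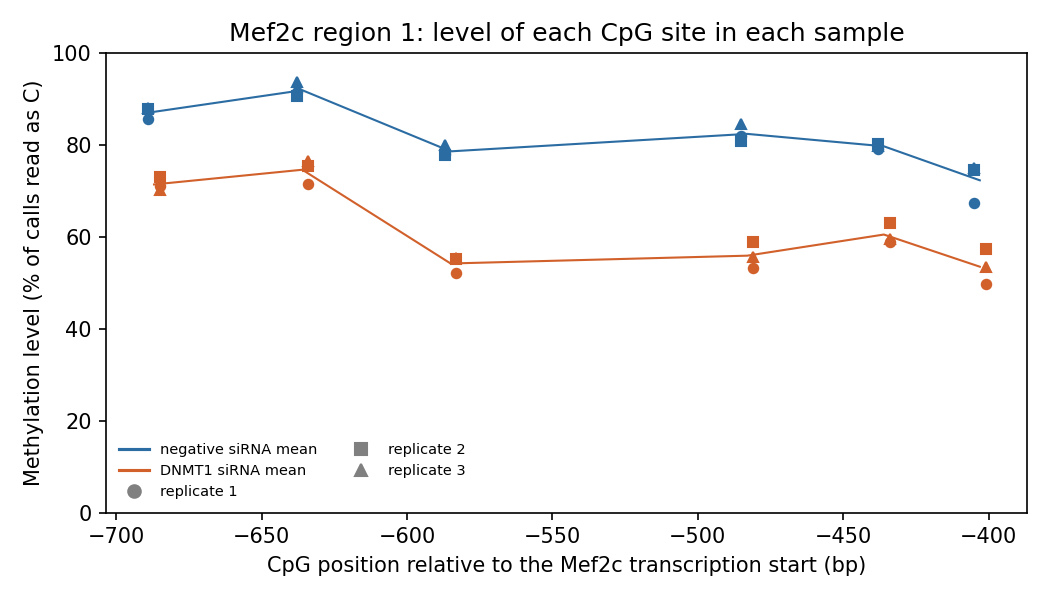
Methylation level in percent of each of the 6 CpG sites of Mef2c region 1 (y axis) against its distance from the transcription start in bp (x axis), with 1 marker per sample and lines through the means of 3 negative siRNA and 3 DNMT1 siRNA samples. Every orange DNMT1 siRNA marker lies below every blue negative siRNA marker at the same site, and the gap is widest at the sites 585 and 483 bp upstream.

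The order of the sites by level was nearly the same in both groups. With negative siRNA it ran from position 115 (91.9% ± 1.5, SD, n = 3) through 64 (87.2% ± 1.30), 268 (82.4% ± 1.94), 315 (79.7% ± 0.455) and 166 (78.6% ± 1.17) to 348 (72.3% ± 4.36). The ranges of positions 315 and 166 overlapped, and those of the other neighbours in this order did not. With DNMT1 siRNA it ran from 115 (74.6% ± 2.61) and 64 (71.4% ± 1.45) to 315 (60.5% ± 2.26), 268 (55.9% ± 2.80), 166 (54.2% ± 1.78) and 348 (53.5% ± 3.82), and of these neighbours only 64 and 315 did not overlap. The exchange of positions 268 and 315 is the change of order between the groups.

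Whether neighbouring sites of Mef2c region 1 changed by different amounts was tested on the difference between the sites within each sample. The drop was larger at position 166 than at 115 by 7.0 points (SE 0.538), and larger at 268 than at 315 by 7.27 points (SE 1.28). In both pairs the samples of the 2 groups did not overlap. The exact permutation p was 0.1 for each, the smallest that 3 against 3 allows, and 0.25 after adjustment over 5 pairs. The other 3 pairs overlapped, with differences between -2.15 and 0.453 points and exact permutation p from 0.3 to 1.

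Averaged over its 6 sites, Mef2c region 1 stood at 80.6%, 82.0% and 83.5% with negative siRNA and at 59.5%, 63.8% and 61.8% with DNMT1 siRNA. The groups were far apart relative to their spread, 82.0% ± 1.44 against 61.7% ± 2.18 (SD, n = 3), a drop of 20.3 points (SE 1.51) that left 75.2% of the level. It was the second largest drop of 26 amplicons with tested sites. Such a separation of 3 against 3 gives an exact permutation p of 0.1, the smallest possible, and 0.124 after adjustment over the 26 amplicons, so this test could not put any amplicon mean below 0.05.

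Mef2d was methylated mainly at the far end of the measured stretch. In region 2, position 82 (chr3:88141461, 911 bp upstream of the start) was the highest Mef2d site, at 58.0%, 57.7% and 59.7% with negative siRNA and 46.5%, 48.2% and 47.4% with DNMT1 siRNA. Its replicates were tight, with SDs of 1.06 and 0.852 points (n = 3), and the pooled level fell by 11.2 points to 81.0% of its start. It was the Mef2d site called by the quasi-binomial F test as well (adjusted p 0.00586).
Position 50 (943 bp upstream) was at 43.6%, 35.5% and 42.7% against 27.1%, 31.2% and 28.3%. It also fell by 11.2 points, with groups that did not overlap, from 40.6% ± 4.43 to 28.9% ± 2.09 (SD, n = 3). Position 261 (732 bp upstream) was at 20.6%, 17.3% and 21.1% against 12.7%, 14.4% and 10.8%, a fall of 6.93 points that left 64.3%. Both were called by logistic regression and by limma (adjusted p 0.044 and 0.0423), and stood just above the threshold by the quasi-binomial F test (adjusted p 0.0568 and 0.0556). By limma with the replicate number as a block, no site of region 2 was called, with adjusted p of 0.114 at position 50, 0.118 at position 82 and 0.112 at position 261.

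Position 304 of region 2 (chr3:88141683, 689 bp upstream) lay just outside the call. It read 19.4%, 15.2% and 21.2% with negative siRNA and 11.2%, 15.5% and 13.9% with DNMT1 siRNA, so that DNMT1 siRNA replicate 2 stood above negative siRNA replicate 2. The pooled difference was -4.82 points. The other 6 entries of region 2 had negative siRNA means of 0.796% to 11.1%, none was called, and their DNMT1 siRNA means were 0.387% to 7.87%. The lowest was position 352 (641 bp upstream), with 0.803%, 0.480% and 1.10% against 0.344%, 0.475% and 0.341%.

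The site at chr3:88141683 was called in one amplicon and not in the other, which is why its 32 surrounding bases are shown, with the CpG in capitals.
Mef2d, chr3:88141668-88141699: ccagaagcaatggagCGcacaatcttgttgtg
In region 1 this CpG is position 26, near the end of the amplicon, with only 60 to 117 calls a sample, against 2278 to 4529 in region 2. The region 1 levels were 24.1%, 15.4% and 25.8% with negative siRNA and 6.67%, 7.34% and 16.2% with DNMT1 siRNA. At this depth the 95% Wilson interval was 16.4% to 34.1% for negative siRNA replicate 1 and 2.62% to 15.9% for DNMT1 siRNA replicate 1. DNMT1 siRNA replicate 3 exceeded negative siRNA replicate 2, so the groups overlapped. The pooled drop of 11.3 points was called by logistic regression (adjusted p 0.000495) but not by the quasi-binomial F test (adjusted p 0.176). Region 1 minus region 2 was 4.73, 0.218 and 4.55 points with negative siRNA and -4.49, -8.20 and 2.35 points with DNMT1 siRNA. The changes read in the 2 amplicons differed by -6.61 points (SE 3.42), with groups that overlapped and an exact permutation p of 0.2, a test added after the values were seen. With the counts of both amplicons added, the level went from 18.7% ± 3.18 to 13.5% ± 2.17 (SD, n = 3), a pooled difference of -4.98 points, which was not called. Reads that lie wholly inside the overlap match both amplicon references, and how such reads were assigned is not given in the sources used here.

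The 3 other shared CpG sites were low in both amplicons. At 652 bp upstream the means were 3.98% in region 1 and 4.10% in region 2 with negative siRNA, and 2.52% and 2.21% with DNMT1 siRNA. At 641 bp upstream they were 1.00% and 0.796% against 0.574% and 0.387%. At 638 bp upstream they were 0.554% and 1.28% against 0.202% and 0.724%. In both amplicons each of these 3 sites had a lower mean with DNMT1 siRNA. Region 1 minus region 2 did not have the same sign at every shared site. At 641 bp region 1 was higher in 6 of 6 samples, by 0.198 points on average (exact sign-flip permutation p 0.0312, the smallest for 6 samples, and 0.125 adjusted over the 4 sites). At 638 bp region 1 was higher in 1 of 6 samples, with a mean difference of -0.623 points (exact sign-flip permutation p 0.0625, adjusted 0.125). At 652 bp and at 689 bp it was higher in 4 of 6.

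**Figure D2:**
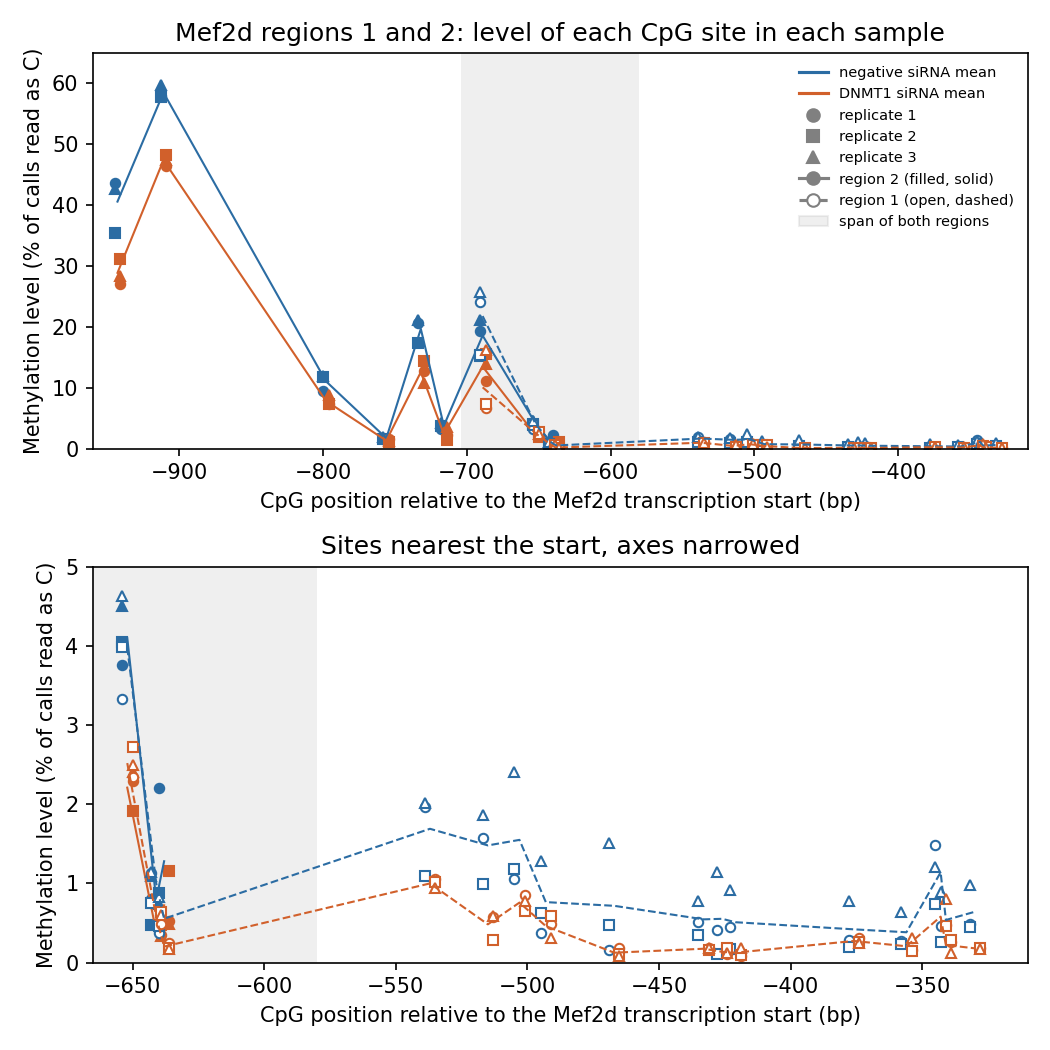
Methylation level in percent (y axis) of the Mef2d CpG sites against distance from the transcription start in bp (x axis), with 1 marker per sample, filled for region 2 and open for region 1, and lines through the group means. The upper panel shows levels up to 59.7% at the far end and below 5% at every site closer than 689 bp, and the lower panel enlarges the near sites, where the open blue triangles of negative siRNA replicate 3 stand above most other markers.

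Closer to the gene Mef2d was almost unmethylated. The 13 CpG sites that only region 1 covered, 537 to 330 bp upstream, had negative siRNA means of 0.383% to 1.69% and DNMT1 siRNA means of 0.125% to 1.00%, at 12224 to 50195 calls a sample. The lowest, position 359 (356 bp upstream), read 0.276%, 0.237% and 0.636% against 0.158%, 0.146% and 0.314%. None of the 13 was called, and in 5 the groups did not overlap, against 43.9% of all CpG sites and 29 of 70 non-CpG cytosines of the same amplicon. The median site of each sample was at 0.464%, 0.453% and 1.14% with negative siRNA and 0.265%, 0.261% and 0.25% with DNMT1 siRNA. Negative siRNA replicate 3 was the highest of its group at 16 of the 17 region 1 sites. The share of C at non-CpG cytosines of the same amplicon, which counts unconverted, misread or methylated bases, was also highest in that sample. In each sample 10 to 12 of the 13 sites stood above that share.

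As amplicon means, Mef2d region 2 stood at 16.3%, 14.8% and 16.9% against 11.2%, 12.3% and 11.7%, a drop of 4.28 points (SE 0.690) with groups that did not overlap. Region 1 stood at 2.26%, 1.61% and 2.87% against 0.862%, 0.899% and 1.43%, a drop of 1.18 points (SE 0.407). Both have an exact permutation p of 0.1 and an adjusted p of 0.124. The region 1 mean is carried by the thinly covered position 26, and without the 4 shared sites the drop was 0.477 points. Without them region 2 dropped by 5.81 points, since its most methylated sites remain.

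**Figure D3:**
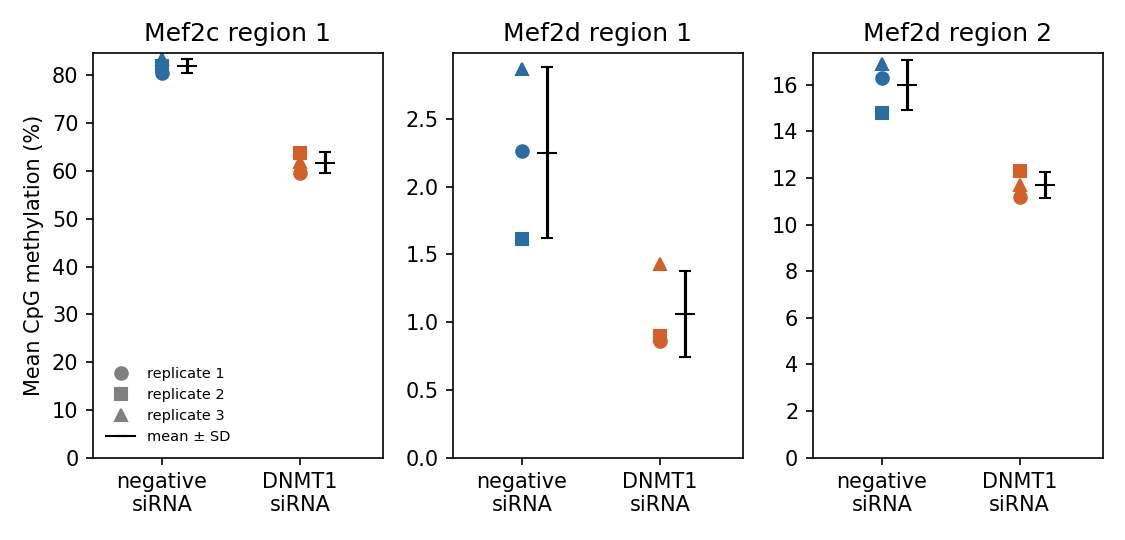
Mean CpG methylation in percent (y axis, separate scale in each panel, all from 0) of Mef2c region 1, Mef2d region 1 and Mef2d region 2 by siRNA group (x axis), with 1 marker per sample and the mean ± SD of 3 samples in black. In each panel the 3 DNMT1 siRNA samples lie below the 3 negative siRNA samples, with group means of 82.0% and 61.7% at Mef2c region 1.

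Mef2c region 1 was compared with Mef2d region 2, the better methylated of the Mef2d regions, in points and as a share of the level. Within each sample Mef2c region 1 exceeded Mef2d region 2 by 64.4, 67.1 and 66.6 points with negative siRNA and by 48.3, 51.5 and 50.1 points with DNMT1 siRNA. The loss at Mef2c was thus 16.1 points larger (SE 1.27), with no overlap between groups and an exact permutation p of 0.1, the smallest possible. On the log2 scale the ratio of Mef2c to Mef2d was 2.31, 2.47 and 2.30 with negative siRNA and 2.41, 2.38 and 2.40 with DNMT1 siRNA. These ranges overlapped, and the log2 changes of -0.41 (SE 0.0329) at Mef2c and -0.45 (SE 0.0679) at Mef2d differed by 0.0356 (SE 0.0540; exact permutation p 0.4). This value rests on single libraries: without negative siRNA replicate 2 it was 0.0888 and the groups no longer overlapped, and without negative siRNA replicate 3 or 1 it was 0.00732 or 0.0107. In proportion, 75.2% of the level was left at Mef2c and 73.3% at Mef2d region 2. Mef2d region 1, with a mean of 2.25% to fall from, kept 47.3% (log2 change -1.08, SE 0.337) and was not part of this test. Whether the proportions differ is not settled by 3 samples a group.

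The Mef2 sites were set beside all other sites by their level with negative siRNA. Among sites above 5%, the median share left was 72.0% for the 12 Mef2 entries and 77.1% for the 155 others, a description with no test. The median difference was -0.871 points over the 33 entries, most of them near 0%, and -2.60 over all sites.

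**Figure D4:**
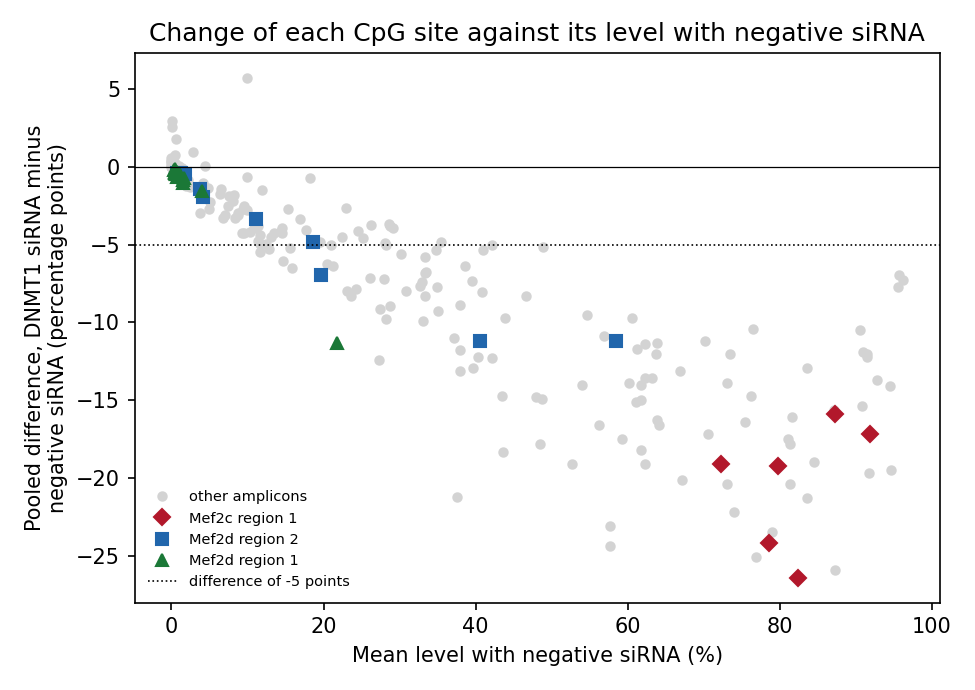
Pooled difference in percentage points, DNMT1 siRNA minus negative siRNA (y axis), of each of 314 CpG sites against its mean level with negative siRNA in percent (x axis), with the Mef2 sites coloured and other amplicons gray. The dotted line is the difference of -5 points needed for a call. The Mef2c diamonds lie at the lower right, between -26.4 and -15.9 points, and most Mef2d region 1 triangles lie at the origin.

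Non-CpG cytosines gave the background of each amplicon, and in 2 of the 3 amplicons the groups did not overlap there either. At Mef2c region 1, 0.300%, 0.293% and 0.321% of non-CpG calls were C with negative siRNA and 0.183%, 0.178% and 0.201% with DNMT1 siRNA, groups that did not overlap (difference -0.117 points; exact permutation p 0.1). At Mef2d region 1 the values were 0.259%, 0.210% and 0.654% against 0.139%, 0.144% and 0.148%, also without overlap (difference -0.231 points; exact permutation p 0.1). At Mef2d region 2 they were 0.149%, 0.142% and 0.154% against 0.165%, 0.152% and 0.155%, which overlapped (exact permutation p 0.2). Negative siRNA replicate 3 was the highest of 6 samples at 62 of 70 non-CpG cytosines of Mef2d region 1, and without it the difference there was -0.0912 points. By single cytosine, 16 of 74 in Mef2c region 1, 29 of 70 in Mef2d region 1 and 1 of 76 in Mef2d region 2 had every DNMT1 siRNA sample below every negative siRNA sample, against 116 of 2241 non-CpG cytosines (5.18%) in all amplicons. Subtracting the non-CpG share left the mean drop at 20.2 points for Mef2c region 1 and 4.28 for Mef2d region 2, and changed that of Mef2d region 1 to 0.953 points. The part of incomplete conversion in the non-CpG values was not tested.

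**Figure D5:**
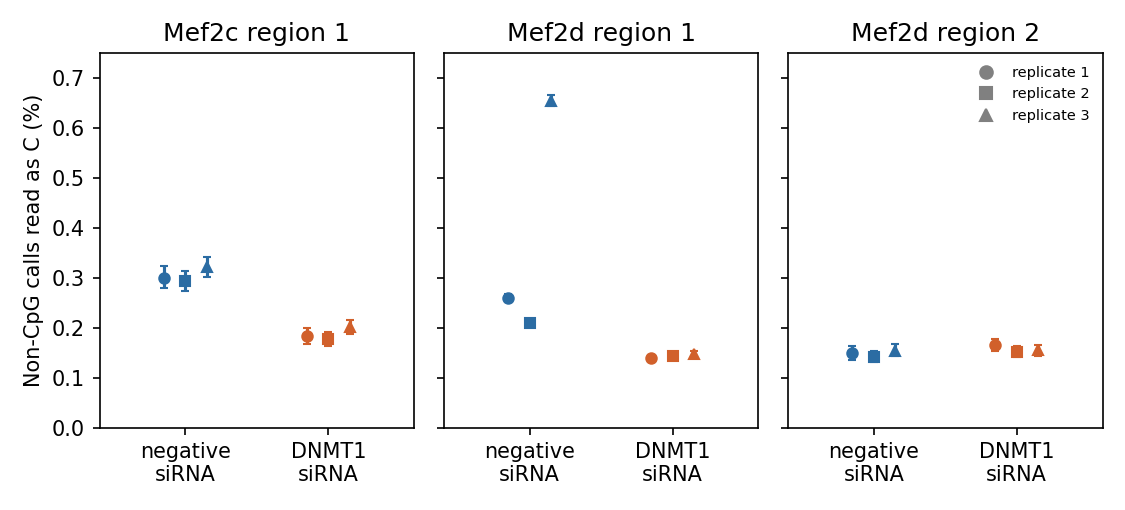
Percent of non-CpG calls read as C (y axis) in each sample of the 3 amplicons by siRNA group (x axis), with 95% Wilson intervals as bars. The DNMT1 siRNA samples lie below the negative siRNA samples in Mef2c region 1 and Mef2d region 1 but not in Mef2d region 2, and negative siRNA replicate 3 of Mef2d region 1 stands apart at 0.654%.

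The assay also covered promoters of 4 genes that MEF2 factors are known to act on, Myh6 (alpha myosin heavy chain), Nppa (atrial natriuretic peptide), Tnnc1 and Tnnt2 (cardiac troponins C and T). Of their 54 tested CpG sites, 42 were called lower and 0 higher by logistic regression, 7 of 7 in Myh6, 8 of 17 in Nppa, 12 of 15 in Tnnc1 and 15 of 15 in Tnnt2, against 37.6% of all sites. With the replicate spread included by the quasi-binomial F test the count was 25 of 54, against 61 of 314 sites in all (19.4%). Of these 25, 7 were in Myh6, 1 in Nppa, 10 in Tnnc1 and 7 in Tnnt2. By limma with the replicate block the count was 23 of 54, against 43 of 314. Their median difference was -11.5 points, against -2.60 over all sites. Of these 54 sites, 50 were above 5% with negative siRNA, compared with 12 of the 33 Mef2 entries. All 42 calls by logistic regression fell among those 50, beside 118 calls among the 167 such sites in all amplicons. The 37.6% thus includes many sites at or below 5%, where no site was called. The 4 genes were listed with earlier results of these data known. Whether their sites differ from unlisted sites of like level was not tested. Expression of the Mef2 genes or of these 4 genes was not analysed here.

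The libraries held 26793215 to 32253280 cytosine calls in all, with 249929 to 384248 in Mef2c region 1, 1645907 to 2376560 in Mef2d region 1 and 283082 to 554864 in Mef2d region 2. At the sites of Mef2c region 1 a sample had 602 to 8753 calls, so that the widest 95% Wilson interval was about 3.74 points on either side. Summed over the 33 entries, replicates of a group differed by more than counting error, with a chi-square per site of 6.04 to 46.3 between pairs of samples, although at single sites such as position 315 of Mef2c region 1 with negative siRNA they did not. PCR copies are counted as calls, so the intervals cover counting error only.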

How the data were processed

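Per the labels and the methods of the study, the authors converted genomic DNA with bisulfite, amplified 2 promoter regions of each of 15 genes, tagmented the pooled products of a sample and sequenced them. The submitters' processing notes name FastQC, Bismark, Bowtie2 and mm10, without versions. The deposited files hold its coverage (a count of calls) for every cytosine, beside the share of C and of T among them in percent. Handling of PCR duplicates and of reads that match both Mef2d amplicons is not given in the sources used here, and both affect the counts.

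Methylated counts were recovered from percent and coverage and came out whole within 4.04e-06. Amplicons were placed on GRCm38.p6 (the build mm10; GENCODE vM21 annotation) by matching all listed cytosines, and 100% of them matched. CpG sites with at least 10 calls in each of 6 samples were kept. Logistic regression with a likelihood-ratio test and no overdispersion, as the package used in the study does by default, was fitted to all 314 sites with Benjamini-Hochberg adjustment. In the quasi-binomial F test the dispersion was not allowed below 1. limma was run on log2 of methylated plus 1 over unmethylated plus 1 calls. For single values, exact permutation tests over samples were used, two-sided. The tests were tested on simulated data. Every site of Mef2c region 1 was named, and at Mef2d the sites that were called, whose group means differed by over 5 points, or that were highest or lowest in their amplicon, beside positions both amplicons cover. Members and lists were chosen with earlier results of these data known. The pooling of shared positions and the means without them were added after the values were seen.

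Python 3.11.15, numpy 2.4.6, scipy 1.17.1, pandas 2.3.3, matplotlib 3.10.9, R 4.3.3 and limma 3.58.1 were used. Sequences came from GRCm38.p6 and promoter shares from RefSeq.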

Additional observations from a re-analysis of the deposited data

How the results depend on the processing

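All 6 sites of Mef2c region 1 kept their call under the 20 alternatives tried, which included coverage minimums of 100 and 1, drawing each site down to 100 calls, other tests and leaving out each sample. The count of 10 called Mef2 entries became 32 with no difference threshold (207 of 314 sites) and stayed between 7 and 11 otherwise. It was 7 with the quasi-binomial F test (61 of 314 sites) and 7 by limma with the replicate block (43 of 314 sites). Logistic regression with the block called 10 (117 of 314 sites), and leaving out single samples gave 10 to 11. At Mef2d, position 26 of region 1 lost its call with the quasi-binomial F test, limma and Bonferroni adjustment, was left out at a coverage minimum of 100, and was not called with the shared positions merged. Position 50 of region 2 lost it with the quasi-binomial F test and limma with the block, position 261 with these and with a difference threshold of 10 points, and position 82 when drawn down and by limma with the block. Position 304 gained one when drawn down, with the unweighted difference, with no difference threshold, and without replicate 2 of either group.

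The mean drop of Mef2c region 1 was -22.9 points as a median over sites and -24.8 drawn down. That of Mef2d region 1 was -0.528 with a coverage minimum of 100, -0.520 weighted by coverage, -0.402 as a median and -0.477 without the shared sites, and that of Mef2d region 2 was -2.34 as a median and -5.81 without the shared sites. The difference between the genes was -18.5 points weighted by coverage, -20.6 as a median and -20.1 drawn down. On the log2 scale it reversed to -0.0193 drawn down, where the samples overlapped, and leaving out single samples gave 0.00732 to 0.0888, with no overlap at 0.0888 (without negative siRNA replicate 2). The non-CpG difference of Mef2d region 2 was 0.0199 points when unweighted. Each drawn-down value comes from a single random draw of at most 100 calls per site and sample. The causes of these shifts were not tested. All amplicon means remained separated between groups when single samples were left out, between -21.4 and -19.2 points at Mef2c region 1.

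Replicate numbers are shared by the groups, but same-numbered samples did not deviate together over the 166 sites above 5% on the mean of all 6 samples (correlations -0.374, -0.0799 and 0.013). Over the 12 Mef2 entries above 5% the correlations were 0.128, 0.466 and 0.653. These entries are few, lie beside each other in the same amplicons and include a CpG site measured in both Mef2d regions. They cannot decide whether the samples were paired. In a balanced design the replicate block leaves the mean drops as they are (-20.3 points at Mef2c region 1), and 3 pairs allow no exact sign-flip p below 0.25.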

Other observations

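Near the end of Mef2d region 1, 3 non-CpG cytosines were read as C at far higher rates than the rest of the amplicon in both groups. Position 415 was at 80.0% to 88.4% over the 6 samples (110 to 182 calls), position 422 at 62.2% to 81.8% and position 421 at 18.2% to 38.5% (22 to 39 calls each). Position 415 supplied 1.02% to 5.25% of all non-CpG calls read as C in that amplicon.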
